A study of Citrus junos with 4 samples.

Results

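The genes described here encode ribosomal proteins of chloroplasts and mitochondria in leaves of Ziyang xiangcheng, a *Citrus junos* cultivar used as a rootstock. They were chosen by their description text, which had to name a 50S, 30S, 39S or 28S ribosomal protein and to hold neither "60S ribosomal" nor "40S ribosomal". By this rule 111 of the 29406 genes in the table were members. Another 119 genes that held one of the phrases also held a 60S or 40S name and were left out, among them some genes described as mitochondrial.

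The tested plants were doubled diploid (4×) and the plants they were set against were diploid (2×). Both groups were untreated greenhouse seedlings of the same cultivar, and mature leaves of 3-5 months at position 4 or 5 below the shoot tip were taken. One library represented 4 plants whose leaves were mixed, so that 2 pools, 4×-1 and 4×-2, stood for 4× and 2 pools, 2×-1 and 2×-2, for 2×. The p-values given here therefore rest on the spread between 2 pools a group, which the test moderated by the spread of all tested genes. The 4× plants stand for one doubled cultivar and not for polyploid citrus as a whole.

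Chloroplasts and mitochondria descend from bacteria and translate their own genomes on ribosomes of bacterial type, made of a large subunit (proteins named L) and a small subunit (proteins named S). Most of the proteins of these ribosomes are encoded in the nucleus, made in the cytosol and imported. In green leaves the chloroplast ribosome makes core subunits of the photosystems and the large subunit of Rubisco, and it also carries a few plastid-specific proteins that bacteria lack or use otherwise.

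Expression was given in RPKM, the number of reads scaled for gene length and library total, so that levels can be compared between genes. Library totals recovered from the RPKM values lay between 8874306 and 9545185 reads. Of the 111 members, 3 were listed at 0 in all 4 libraries, 4 had a mean below the filter of 1 RPKM, and 104 entered the test. Read numbers of genes were recovered as the smallest whole numbers that fit the RPKM values, so true numbers may be larger. The 4 below the filter came out at 1 or 2 recovered reads each over the 4 libraries. The 104 tested members had 43 to 43006 recovered reads each, and a gene with few reads has a correspondingly imprecise value.

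The descriptions did not all fit the name of the group. By their leading description, 89 members were ribosomal proteins and 86 of these were tested. The other 22 matched only through a secondary hit. They comprised 7 chloroplast ribonucleoproteins, which bind chloroplast transcripts, 5 splicing or nuclear RNA-binding proteins, 5 proteins of the PEBP family, to which the flowering regulator TERMINAL FLOWER belongs, 3 L7Ae-type proteins of small nucleolar particles, 1 JmjC demethylase and 1 ZF-HD homeobox protein. The ribosomal proteins and these other proteins are given separately below.

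Among the 89 ribosomal proteins, 61 were of the large and 28 of the small subunit. The descriptions of 50 named the chloroplast, those of 10 the mitochondrion, those of 6 both and those of 23 neither. Chloroplast-named genes were the most highly expressed, with a median of 101.7 RPKM over 48 tested genes. Mitochondria-named genes ranged only from 11.1 to 32.9 RPKM, with a median of 21.7 RPKM over 10 genes, and the 22 tested genes with neither word had a median of 15.2 RPKM. The chloroplast-named genes had summed levels of 6071 and 5492 RPKM in 4×-1 and 4×-2, against 4652 and 5473 RPKM in 2×-1 and 2×-2. The 4×-2 and 2×-2 sums lay close together, and the 2×-1 sum was the lowest. The mitochondria-named genes summed to 232.7 and 216.4 RPKM in 4×-1 and 4×-2, against 227.7 and 238.7 RPKM in 2×-1 and 2×-2, and here the groups overlapped.

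**Figure D1:**
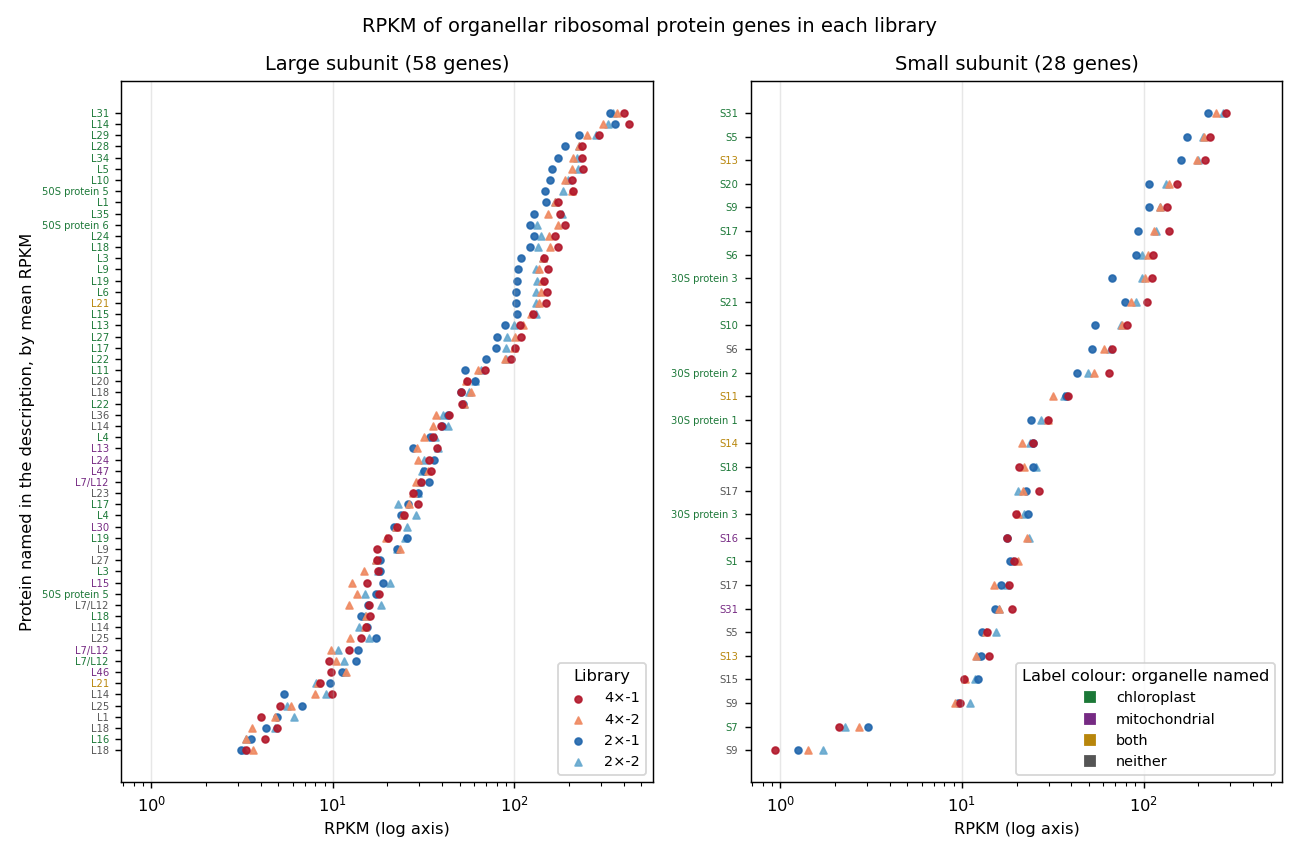
RPKM (log axis) of the 86 tested ribosomal protein genes in each of the 4 libraries, with the large subunit on the left and the small subunit on the right. Genes are ordered by mean RPKM and labelled by protein, and the label colour gives the organelle named in the description. The highest genes are chloroplast-named, and in most of them 2×-1 is the lowest library.

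No member passed the threshold of an adjusted p below 0.05 in 4× against 2× (limma, Benjamini-Hochberg adjustment over 16157 genes), where 1.39% of all tested genes did, 0.396% higher and 0.99% lower. At an unadjusted p below 0.05, 11 members were higher and 3 lower in 4×, against 5.14% and 8.16% of all tested genes. With limma's voom on the recovered reads, 1 member was called, and 2.5% of all tested genes. With the replicate number as a block in limma, 3 members were called, and 5.15% of all tested genes. None of the members' differences described below is therefore a call of the main test, and they are given as values with their errors.

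The members' fold changes differed by organelle name. The median log2 fold change (4× over 2×, on the log2(RPKM + 0.5) scale throughout) was 0.17 over the 48 chloroplast-named genes, 38 of which had a positive value, where 44.4% of all tested genes did. It was −0.078 over the 10 mitochondria-named genes, with 3 positive, and −0.099 over the 22 genes with neither word, with 6 positive. The mitochondria-named median was −0.0076 without 2×-2, with 5 of 10 positive, −0.029 without 4×-2 and −0.11 without 4×-1. The median over all 16157 tested genes was −0.027. Both 4× libraries lay above both 2× libraries in 22 of the 48 chloroplast-named genes and below them in 4, where 17.5% and 26.2% of all tested genes did so. Among the 22 genes with neither word, 1 lay above and 6 lay below. Both subunits of the chloroplast ribosome showed positive medians, 0.17 over 33 genes of the large and 0.21 over 15 genes of the small subunit. The chloroplast-named median was 0.060 without 2×-1, and −0.042 over the 13 chloroplast-named genes from 15 to 60 RPKM. The mitochondria-named genes reached at most 32.9 RPKM, so organelle name and level were not separated. No test of the difference between organelles was made.

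The positive values lay mostly in the highly expressed genes. All 35 ribosomal protein genes over 60 RPKM had a positive log2 fold change, with a median of 0.22, whereas 945 of all 2142 genes over 60 RPKM did, with a median of −0.025. This limit was not planned, and the count depends on it. The ribosomal protein gene next below it, at 57.6 RPKM, had a log2 fold change of −0.16. Of the 35 genes, 32 were chloroplast-named, 2 named both organelles and 1, Cs9g01840 for protein S6, named neither. Of the 33 ribosomal protein genes from 15 to 60 RPKM, 10 were positive, with a median of −0.071, and of the 16 genes from 3 to 15 RPKM, 5 were. Within the chloroplast-named genes, 32 of 32 over 60 RPKM and 5 of 13 from 15 to 60 RPKM were positive. Across the 86 ribosomal protein genes, log2 level and log2 fold change had a Pearson r of 0.63, and across all tested genes 0.037. These genes share the same 4 libraries and are not independent, so the coefficients are descriptions only.

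**Figure D2:**
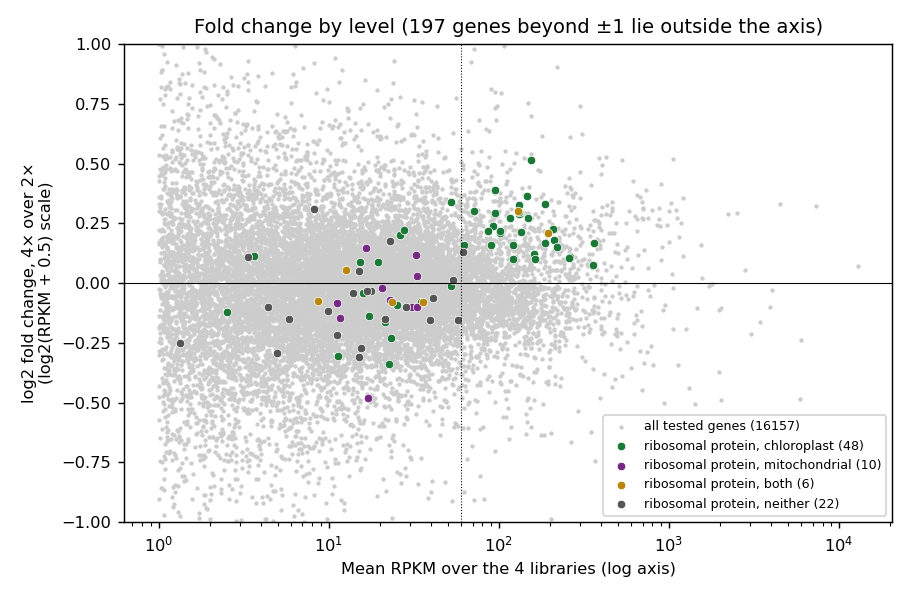
Log2 fold change (4× over 2×) against mean RPKM over the 4 libraries (log axis). Grey points are all 16157 tested genes, of which 197 lie outside the axis, coloured points are the 86 tested ribosomal protein genes by organelle named, and the dotted line marks 60 RPKM. All 35 ribosomal protein genes to the right of that line lie above 0, and those to its left lie on both sides.

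One library stood apart in this pattern. The library 2×-1 was the lowest of the 4 in 34 of the 35 ribosomal protein genes over 60 RPKM and in 36 of the 48 chloroplast-named genes, where it was the lowest in 19.4% of all tested genes. The median log2 difference over the 48 genes was 0.33 for 4×-1 minus 2×-1 and 0.25 for 4×-2 minus 2×-1, but 0.11 for 4×-1 minus 2×-2 and −0.0047 for 4×-2 minus 2×-2. The libraries within a group differed as well, with a median of 0.19 for 2×-2 minus 2×-1 and −0.12 for 4×-2 minus 4×-1. Without 2×-1 the median over the chloroplast-named genes was 0.060, with 35 of 48 positive, and 29 of the 35 genes over 60 RPKM were positive, with a median of 0.079. Without 2×-2 that median was 0.36 and 35 of 35 were positive. By the paper's mapping figures, 2×-1 also had the lowest share of mapped reads of the 4 libraries. Whether this share bears on the values was not tested.

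Other leaf genes moved with the same library. In a list of 53 photosynthesis genes, 42 were tested, and 2×-1 was the lowest library in 36 of these (85.7%). Their summed levels were 32179 and 31613 RPKM in 4×-1 and 4×-2, against 25707 and 32187 RPKM in 2×-1 and 2×-2. Their median log2 fold change was 0.25, with 0 called higher and 1 called lower, and it was 0.030 without 2×-1. Of 22 mesophyll markers, 20 were tested and none was listed at 0, with sums of 18902 and 19208 RPKM in 4× and 15948 and 19536 RPKM in 2×. The same library was the lowest in 15 of these 20 markers, and 0 were called higher and 1 called lower. Genes for chlorophyll a-b binding proteins and the Rubisco small chain are in both lists, so the markers are not a separate set. The gene called lower is the same in both lists.

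The markers of other cell types did not follow one direction. They were all genes whose descriptions held certain words, such as laccase for xylem, SWEET for phloem or SPEECHLESS for guard cells. Whether these genes mark the cell type in mature citrus leaves was not checked. Of all tested genes, 0.396% were called higher and 0.99% lower, and 5.14% were higher and 8.16% lower at an unadjusted p below 0.05. Both 4× libraries lay above 2× in 17.5% and below in 26.2% of them. Of 99 xylem markers 34 were tested, with 2 called higher and 1 called lower, and 11 were higher and 3 lower at an unadjusted p below 0.05. They summed to 5630 and 5766 RPKM in 4×, against 5623 and 5278 RPKM in 2×, and 22 of the 99 were listed at 0. Of 170 phloem markers 58 were tested and 0 were called, with 3 higher and 2 lower at an unadjusted p below 0.05, and the sums were 1569 and 1566 RPKM in 4× and 1668 and 1523 RPKM in 2×. Of 52 epidermis and cuticle markers 21 were tested and 0 were called, with 0 higher and 4 lower at an unadjusted p below 0.05. Their median log2 fold change was −0.096, and they summed to 3799 and 3139 RPKM in 4×, against 3781 and 3714 RPKM in 2×. Of 33 dividing cell markers 13 were tested and 0 were called, with 0 higher and 1 lower at an unadjusted p below 0.05, and 2 lay above and 6 below 2× in both libraries. These summed to 643.6 and 647.5 RPKM in 4×, against 661.5 and 657.05 RPKM in 2×. Of 15 guard cell markers 4 were tested, with sums of 13.6 and 16.2 RPKM in 4× and 13.3 and 15.9 RPKM in 2×. Of 4 root markers 3 were tested, with sums of 51.4 and 58.8 RPKM in 4× and 63.5 and 52.4 RPKM in 2×. The part of leaf cell composition in the values was not tested, and in these pooled leaves fewer cells of a type and less RNA per cell cannot be told apart.

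The ribosomal proteins of the cytosol did not share this library pattern. Of the 126 genes of that list, 101 were tested and 0 were called, while 2 were higher and 5 lower at an unadjusted p below 0.05. Their median log2 fold change was −0.069, with 24 of 101 positive, but 0.011 without 4×-2. The library 2×-1 was the lowest in 6 of them, and their sums were 16670 and 15693 RPKM in 4×-1 and 4×-2, against 19911 and 18312 RPKM in 2×-1 and 2×-2. Lists of other genes of organellar gene expression had medians between those of both kinds of ribosome. The median was −0.00047 over 35 tested translation factors and 0.073 over 14 organellar aminoacyl tRNA synthetases. It was 0.044 over 290 tested genes of a mixed list. This list held ribosome assembly factors, RNA polymerase sigma factors and chloroplast-named pentatricopeptide repeat proteins, and so not genes of translation alone. No gene of these 3 lists was called. In the order given, 1, 1 and 14 were higher and 1, 0 and 5 lower at an unadjusted p below 0.05. Of all tested genes, 5.14% were higher and 8.16% lower at that limit.

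**Figure D3:**
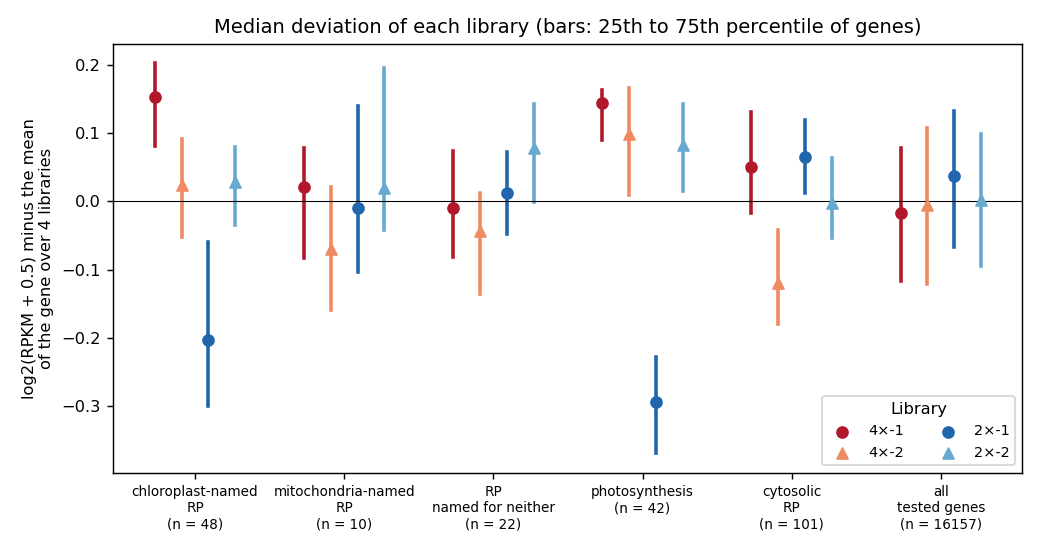
Deviation of each library from the mean of the gene over the 4 libraries, on the log2(RPKM + 0.5) scale, for 6 groups of tested genes (RP, ribosomal protein). Points are medians over genes and bars run from the 25th to the 75th percentile of genes. The 2×-1 median is −0.20 in the chloroplast-named ribosomal proteins and −0.29 in the photosynthesis genes, against 0.064 in the cytosolic ribosomal proteins.

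The plastid-specific proteins included the member with the largest fold change. Cs3g16530, for 50S protein 6, which has no counterpart in bacteria, had 190.8 and 172.8 RPKM in 4×-1 and 4×-2, against 121.4 and 133.1 RPKM in 2×-1 and 2×-2. The lowest 4× value lay above the highest 2× value by more than the libraries of either group differed. Its log2 fold change was 0.51 with an SE of 0.11 and an adjusted p of 0.066 (limma, Benjamini-Hochberg), and under the alternative settings the adjusted p ranged from 0.0042 to 0.28. Without 2×-1 its log2 fold change was 0.45. It was the member called by voom.

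Cs6g16430, for 50S protein 5, another protein without a bacterial counterpart, had 209.1 and 207.5 RPKM in 4×-1 and 4×-2, against 148.0 and 185.1 RPKM in 2×-1 and 2×-2. Cs6g16420, the gene with the neighbouring identifier and the same description, had 18.01 and 13.6 RPKM in 4×, against 17.4 and 14.9 RPKM in 2×. The first of these genes was higher in both 4× libraries, with a log2 fold change of 0.33 (SE 0.13) that was 0.17 without 2×-1, and the second overlapped between the groups. The small-subunit protein 3 likewise had one higher and one lower gene. Cs7g13090 had 111.5 and 101.5 RPKM in 4×-1 and 4×-2, against 66.9 and 98.6 RPKM in 2×-1 and 2×-2, and its log2 fold change of 0.39 (SE 0.16) was 0.11 without 2×-1. Cs6g18770 had 19.7 and 20.4 RPKM in 4×, against 23.0 and 22.1 RPKM in 2×, with a log2 fold change of −0.16 (SE 0.11). Here both 4× libraries were the lower ones.

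Cs7g01430, for 30S protein 2, an RNA-binding protein of the small subunit, had 64.2 and 53.5 RPKM in 4×-1 and 4×-2, against 43.1 and 49.6 RPKM in 2×-1 and 2×-2 (log2 fold change 0.34, SE 0.13). The gene for 30S protein 1, orange1.1t02570, is related to the bacterial factors that store idle ribosomes. It had 29.7 and 29.95 RPKM in 4×, against 23.9 and 27.2 RPKM in 2× (log2 fold change 0.22, SE 0.11). Both genes were higher in each 4× library than in either 2× library, and their adjusted p-values were 0.27 and 0.46 (limma, Benjamini-Hochberg). The fold change of Cs7g01430 was 0.21 without 4×-1, and that of orange1.1t02570 was 0.13 without 2×-1. Of these 7 genes, all for proteins described by a number alone, 5 lay above, 1 lay below and 1 overlapped. Of all tested genes, 17.5% lay above and 26.2% below. Proteins with an L or S name were not searched for plastid-specific ones. The chloroplast-named S31 gene Cs6g08000, given below, was thus not in this set, and its groups overlapped.

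**Figure D4:**
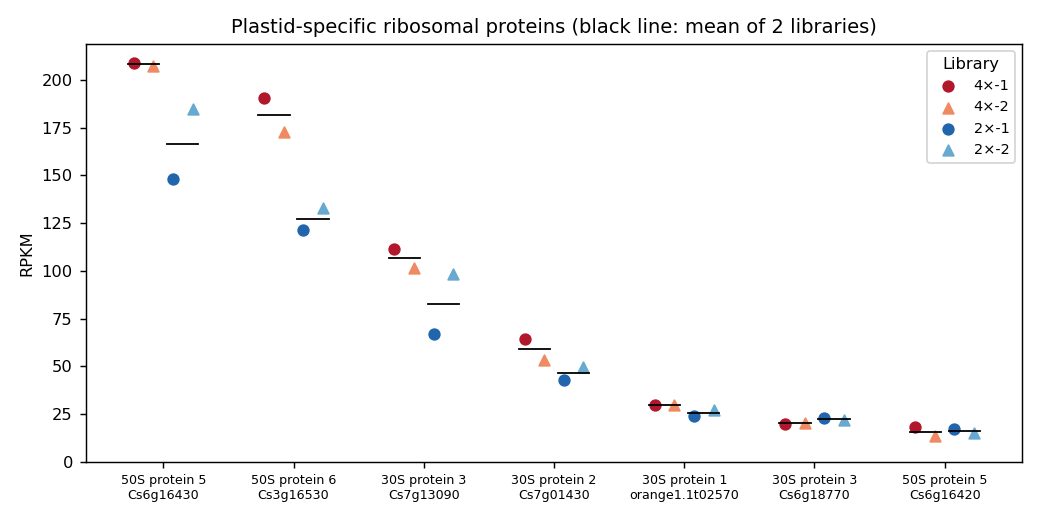
RPKM of the 7 genes for plastid-specific ribosomal proteins described by a number alone, in each library. Within each gene 4× is on the left and 2× on the right, with a black line at the mean of the 2 libraries. For 50S protein 6 (Cs3g16530) the 4× values of 190.8 and 172.8 RPKM lie well above the 2× values of 121.4 and 133.1 RPKM, and for Cs7g13090 the 2× libraries lie farther apart than the means of the groups.

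Proteins of the large subunit were led by L31 and L14. Cs3g25120, for L31, had 400.4 and 366.8 RPKM in 4×-1 and 4×-2, against 334.1 and 349.4 RPKM in 2×-1 and 2×-2 (log2 fold change 0.17, SE 0.12). The gene for L14, orange1.1t04817, had 428.1 and 306.1 RPKM in 4×, against 359.3 and 328.4 RPKM in 2×, and its 4× libraries were the highest and the lowest of the 4. Cs1g01660, for L29, which in bacteria lies near the exit of the peptide tunnel, had 293.3 and 251.4 RPKM in 4×, against 226.2 and 280.2 RPKM in 2×, and the groups overlapped.

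Several proteins with known roles in bacterial ribosomes were higher in both 4× libraries without passing the test. Cs5g20790, for L18, which binds the 5S RNA in *Escherichia coli*, had 174.0 and 156.5 RPKM in 4×-1 and 4×-2, against 121.3 and 135.3 RPKM in 2×-1 and 2×-2, with a log2 fold change of 0.36 (SE 0.11, adjusted p = 0.18 with limma). Cs4g12160, for L24, which in *E. coli* starts the assembly of the large subunit, had 168.0 and 154.8 RPKM in 4×, against 127.5 and 139.3 RPKM in 2× (log2 fold change 0.27, SE 0.11). Cs7g16040, for L3, another early assembly protein, had 145.7 and 144.5 RPKM in 4×, against 108.3 and 144.2 RPKM in 2×. For L3 the 2×-2 value lay at the level of 4×, and its log2 fold change of 0.21 was 0.0083 without 2×-1. L6 (Cs2g21530), L9 (Cs8g15500) and L27 (Cs2g25420), named here after their values were seen, completed the members that were higher at an unadjusted p below 0.05 in the large subunit, with log2 fold changes of 0.33, 0.30 and 0.29. Without 2×-1 these were 0.14, 0.14 and 0.20.

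The proteins of the ribosomal stalks, which in bacteria recruit translation factors and release the spent tRNA, fell on both sides. Cs7g27880, for the stalk base protein L10, had 206.2 and 189.4 RPKM in 4×-1 and 4×-2, against 157.3 and 196.8 RPKM in 2×-1 and 2×-2. Cs5g01230, for L11 at the same base, had 68.7 and 63.3 RPKM in 4×, against 53.1 and 65.6 RPKM in 2×. In both, 2×-1 was the lowest library and 2×-2 lay within the range of 4×. Cs7g02150, for L1, had 172.8 and 166.6 RPKM in 4×, against 149.4 and 167.5 RPKM in 2×. A second L1 gene without an organelle name, Cs2g15330, had 4.04 and 4.81 RPKM in 4×, against 4.94 and 6.15 RPKM in 2× (log2 fold change −0.29, SE 0.19, and −0.15 without 2×-2).

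The 4 genes for the stalk protein L7/L12 all had negative fold changes, from −0.30 to −0.10, and mean levels of 11.3 to 30.8 RPKM. Cs6g06100, the chloroplast-named one, had 9.58 and 10.5 RPKM in 4×-1 and 4×-2, against 13.4 and 11.6 RPKM in 2×-1 and 2×-2 (log2 fold change −0.30, SE 0.14, and −0.20 without 2×-1). It was the only one of the 4 whose groups did not overlap. Cs2g11430, named mitochondrial, was the most highly expressed, with 30.7 and 28.8 RPKM in 4×, against 33.7 and 30.2 RPKM in 2×.

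L4 and L28 had small fold changes. The L4 genes Cs2g02600 and Cs8g19920, for a protein that lines the peptide tunnel in bacteria, had log2 fold changes of −0.081 (SE 0.11) and −0.090 (SE 0.13). Cs9g09680, for L28, had 236.6 and 225.8 RPKM in 4×-1 and 4×-2, against 190.3 and 227.0 RPKM in 2×-1 and 2×-2, and its groups overlapped (log2 fold change 0.15, SE 0.12).

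In the small subunit, S31 and S5 were the most abundant chloroplast-named proteins. Cs6g08000, for S31, had 284.1 and 251.1 RPKM in 4×-1 and 4×-2, against 226.1 and 272.1 RPKM in 2×-1 and 2×-2. Cs2g05790, for S5, which takes part in the accuracy of decoding in *E. coli*, had 233.5 and 214.9 RPKM in 4×, against 172.4 and 212.0 RPKM in 2× (log2 fold change 0.23, SE 0.13). Cs1g07980, for S20, a protein bound to the small-subunit RNA, had 153.3 and 138.5 RPKM in 4×, against 106.8 and 132.8 RPKM in 2× (log2 fold change 0.29, SE 0.13). S5 and S20 were higher in each 4× library than in either 2× library, and S31 overlapped. Without 2×-1 the log2 fold change was 0.079 for S5 and 0.13 for S20.

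Cs1g15190, for S17, had 137.7 and 114.8 RPKM in 4×-1 and 4×-2, against 92.8 and 116.9 RPKM in 2×-1 and 2×-2, and Cs2g25190, for S21, had 104.3 and 85.3 RPKM in 4×, against 78.6 and 90.4 RPKM in 2×. In both the groups overlapped. Cs3g21930, for S1, which holds mRNA on the ribosome in *E. coli*, was much lower in level, with 19.4 and 20.5 RPKM in 4×, against 18.3 and 19.1 RPKM in 2× (log2 fold change 0.090, SE 0.11). Cs4g12360, for S7, had 2.09 and 2.70 RPKM in 4×, against 3.04 and 2.28 RPKM in 2×, from 43 recovered reads in all. The lowest tested member, orange1.1t01341 for S9, rested on 51 recovered reads. No member was described as S4 or S12, whose genes commonly lie in the chloroplast genome of plants, and L2 occurred only in the description of the JmjC demethylase gene.

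The members lower in 4× at an unadjusted p below 0.05 were all of the large subunit and of moderate level. Cs1g04980, for mitochondrial L15, had 15.5 and 12.7 RPKM in 4×-1 and 4×-2, against 18.96 and 20.6 RPKM in 2×-1 and 2×-2, with a log2 fold change of −0.48 (SE 0.14, adjusted p = 0.14 with limma). Cs5g06210, for L19, had 20.2 and 19.5 RPKM in 4×, against 25.5 and 24.96 RPKM in 2×, with a log2 fold change of −0.34 (SE 0.11, adjusted p = 0.20 with limma). Cs1g23000, for L25, had 14.2 and 12.4 RPKM in 4×, against 17.3 and 15.9 RPKM in 2×, with a log2 fold change of −0.31 (SE 0.13, adjusted p = 0.35 with limma). In these 3 genes 4×-2 was the lowest library, and the groups did not overlap.

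Among the 10 mitochondria-named genes, the groups overlapped in 8, while 17.5% of all tested genes lay above and 26.2% below. L15 lay below 2×, as given above, and L47 (Cs5g05060), named after its values were seen, lay above, with 34.5 and 33.6 RPKM in 4×-1 and 4×-2, against 31.8 and 30.9 RPKM in 2×-1 and 2×-2. The 6 genes whose descriptions named both organelles had 2 highly expressed copies, for S13 (Cs3g19090) with a mean of 193.7 RPKM and for L21 (Cs3g22380) with a mean of 129.8 RPKM, and in both 2×-1 was the lowest library. The other 4 had means from 8.65 to 36.002 RPKM, and their groups overlapped.

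Many protein names were shared by more than one gene, called copies here, and these differed in level and in fold change. Families were formed by subunit and protein name alone, so copies may belong to different organelles. The 89 genes fell into 53 such families, 25 of them with 2 or more genes. The contrasts between copies below therefore overlap those by organelle name and by level given above. The highest copy was chloroplast-named in 20 of the 25, and in the 24 with a tested second copy it was 1.37 to 32.9 times as high as that copy, with a median of 5.62. In these 24 families the log2 fold change was positive for 21 of the highest copies and 7 of the second copies, with medians of 0.22 and −0.082, and the highest copy had the larger value in 22. The library 2×-1 was the lowest for 20 of these highest copies and 5 of the second copies. The difference between the first 2 copies was largest in L19. Its higher copy, Cs5g07930, had a mean of 131.3 RPKM and a log2 fold change of 0.29, against −0.34 for Cs5g06210. For L15 the copies were Cs2g12550, named chloroplast, with 0.10, and mitochondrial Cs1g04980, with −0.48. Cs5g07930 and Cs2g12550 were named here after their values were seen.

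The largest families were L18 with 6 genes, L14 with 5, L7/L12 with 4, and S17 and S9 with 3 each. The L18 genes ranged from 0 to 146.8 RPKM and the L14 genes from 0 to 355.5 RPKM in mean level. The genes listed at 0 belonged to L14 (Cs2g08100), L18 (orange1.1t01976) and L36 (Cs4g17920), and Cs2g08100 and Cs4g17920 each lie next to a detected gene of the same family by identifier. The values came from uniquely mapped reads, so copies of near-identical sequence are uncertain, and so are genes that differ between *C. junos* and the sweet orange genome.

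The chloroplast ribonucleoproteins had the library pattern of the chloroplast-named ribosomal proteins, at a median level of 60.6 RPKM and a range of 14.5 to 709.9 RPKM. All 7 had a positive log2 fold change, with a median of 0.20, and 2×-1 was the lowest library in all 7. Cs6g11900 was the most highly expressed member of all, with 799.8 and 685.1 RPKM in 4×-1 and 4×-2, against 602.0 and 752.9 RPKM in 2×-1 and 2×-2, and its groups overlapped. Cs9g09170 had 43.9 and 39.7 RPKM in 4×, against 26.5 and 33.2 RPKM in 2×, with a log2 fold change of 0.49 (SE 0.13, adjusted p = 0.12 with limma). Cs3g17800 had 55.2 and 47.9 RPKM in 4×, against 36.1 and 45.8 RPKM in 2× (log2 fold change 0.33, SE 0.14). Both lay above 2× in each library, and without 2×-1 their log2 fold changes were 0.33 and 0.16.

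The L7Ae-type and the splicing or nuclear RNA-binding proteins had negative values. The 3 L7Ae-type proteins had a median log2 fold change of −0.26. Cs7g26140, described as a protein of H/ACA particles, which guide the modification of ribosomal RNA, had 33.1 and 26.5 RPKM in 4×-1 and 4×-2, against 35.5 and 35.7 RPKM in 2×-1 and 2×-2 (log2 fold change −0.26, SE 0.13, and −0.10 without 4×-2). The 5 splicing or nuclear RNA-binding proteins had a median of −0.078, with 0 of 5 positive. Of the remaining members, 2 PEBP genes were tested, Cs2g06960 with 26.9 and 36.3 RPKM in 4×, against 32.2 and 22.1 RPKM in 2×, and Cs9g16990 with 26.5 and 23.04 RPKM in 4×, against 29.9 and 21.01 RPKM in 2×. The ZF-HD gene Cs6g21230 had 18.9 and 16.1 RPKM in 4×, against 16.9 and 14.6 RPKM in 2×. In these 3 genes the groups overlapped, and they were named after their values were seen.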

How the data were processed

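Leaf RNA of 2 pools of 4× and 2 pools of 2× plants was sequenced as 50 bp single-end reads. The authors aligned clean reads to the *C. sinensis* genome and deposited RPKM values, made from the reads that mapped to one place and the length of each gene. The submitters' processing notes name TopHat2 2.0.9, Bowtie2 2.0.6 and HTSeq 0.5.4p3, while strand use, counter settings and annotation version were not given in the sources used here. The RPKM values came out as whole reads in 24073 of 24073 genes above 0 (100%, tolerance 0.001 reads), up to a factor shared by the 4 libraries, and these reads summed to 97.9% of the recovered totals. Authors' comparison columns were not used, and 0 value columns were left without a sample.

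Values were transformed to log2(RPKM + 0.5), and genes averaging 1 RPKM or more, 16157 in number, were fitted by limma (version 3.58.1, R version 4.3.3) with a mean-variance trend in eBayes and no block. Two-sided p-values were adjusted after Benjamini-Hochberg, with a threshold of 0.05. This scale understates the change of low genes. The script was tested on simulated data. Other steps used Python 3.11.15, pandas 2.3.3, numpy 2.4.6 and matplotlib 3.10.9. Alternatives were pseudocounts of 0.1 and 1, no filter, a mean of at least 3 RPKM, median-of-ratios and upper-quartile scaling, robust eBayes, eBayes without trend, a replicate block, each library left out and voom on the recovered reads. Leaving out the proteins of other families was added after seeing the data, as were the alternatives for the chloroplast-named genes and for the genes over 60 RPKM. The limit of 60 RPKM was itself not planned.

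The members and lists were chosen with earlier results of these data known. Lists were made from words in the descriptions. Named were the 6 largest fold changes in each direction among members whose groups did not overlap, the 5 highest and 2 lowest members, members of families with a known role, plastid-specific proteins, members at 0 and families of 3 or more genes. The plastid-specific proteins were those described by a number alone.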

Additional observations from a re-analysis of the deposited data

How the results depend on the processing

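The count of members called, 0 in the main test, was 3 with the replicate number as a block (Cs3g16530 and Cs9g09170 higher, Cs1g04980 lower, adjusted p of 0.0042, 0.0092 and 0.034 in limma) and 1 with voom (Cs3g16530, adjusted p = 0.025), and 0 under the other alternatives and with each library left out. The numbers were not taken to pair the libraries, since the differences between replicates 1 and 2 of 4× and of 2× had a correlation of −0.046 across 16157 genes. Of all tested genes, 224 were called, 64 higher and 160 lower in 4×. The count was 832 with the block, 404 with voom, 6 without the trend, 0 without a filter on low values (2438 at an unadjusted p below 0.05) and 77 to 264 with a library left out, of which 144 without 2×-1 and 77 without 2×-2. With median-of-ratios scaling 69 were higher and 109 lower.

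The members' median log2 fold change, 0.095, ranged from 0.0071 (without 2×-1) to 0.13 with a library left out and from 0.092 to 0.13 otherwise. The chloroplast-named median, 0.17, ranged from 0.060 to 0.29 with a library left out and from 0.17 to 0.20 otherwise. The count of 35 positive genes over 60 RPKM ranged from 29 to 35.

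The filters, robust eBayes, eBayes without trend and the block leave a gene's fold change as it is, so its direction could not change there. Of 656 values of 47 named genes under the alternatives, 637 kept their direction and side of the threshold, 4 came to pass it and 15, all with a library left out, changed sign. These belonged to Cs6g11900 (−0.024 to 0.30), orange1.1t04817 (−0.17 to 0.32), Cs1g01660 (−0.045 to 0.26), Cs6g08000 (−0.027 to 0.24), Cs4g12360 (−0.30 to 0.050), Cs1g21550 (−0.32 to 0.029), Cs4g04850 (−0.17 to 0.10), Cs7g15400 (−0.17 to 0.081), Cs8g19920 (−0.23 to 0.049) and Cs6g16420 (−0.24 to 0.16). The cause was not tested. With a library left out, the lone library of its group was assumed to vary like the other group.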
